A study of Mus musculus with 12 samples.

Results

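The genes described here are the 57 of 18193 measured genes whose signal was higher in aortic endothelial cells lacking both Dscr-1 and ApoE than in cells lacking ApoE alone. A gene was taken when the probe set with its highest mean signal on the aortic arrays differed by at least 0.7 on the log2 scale in each of the same-numbered array pairs and had a double null mean of 6 or more. Of the 62 genes past these limits, which are 0.341% of those measured, 5 belong to a set of 8 left out by name (Hprt, Cp, Lyz2, Csf1r, Cd68, Abcg1, Acot2 and Mt2), which leaves 57. The aortic values chose the genes, so they are given as a description with no test. In the opposite direction, 90 genes were at least 0.7 lower in both pairs with an ApoE null mean of 6 or more. No gene was left out of that count by name, so it stands beside the 62.

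The study compared adult C57BL/6J mice on Affymetrix whole-genome mouse arrays. Primary endothelial cells isolated from the aorta and cultured for several days gave 4 arrays, 2 from ApoE null and 2 from Dscr-1 and ApoE double null mice, so every aortic culture lacked ApoE. Whole liver gave 8 arrays, 2 for each of wild type (WT), loss of Dscr-1, loss of ApoE and loss of both, and the sample labels place all livers on a high-fat diet for 12 weeks, whereas the study text names normal chow for its liver arrays. The number of mice behind each array and their sex were not given. The sample titles and genotype labels name ApoE null as the aortic control, although the series description names Dscr-1 null cells, and the titles were followed. Nothing states that same-group arrays came from separate mice, so p-values measure only the spread between these arrays.

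DSCR-1, the product of Rcan1, binds and restrains calcineurin, the phosphatase that sends NFAT transcription factors to the nucleus. In activated endothelium, calcineurin-NFAT, NF-kB and AP-1 signals are known to raise cytokines, adhesion molecules and matrix proteases. ApoE clears remnant lipoproteins, and mice without it become hypercholesterolemic.

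The promoter letters of 6 of the 57 genes are shown because they belong to the gene with the largest smaller pair difference (Lcp2), to related genes that lie near each other on 1 chromosome (the neighbours Clec4d and Clec4e, and Mmp3 and Mmp13) and to the genes whose double null arrays were farthest apart (Mmp13, Mmp3, with Il6 among the widest). Each run is the 250 bases before the RefSeq gene start in mouse build GRCm38.p6, written 5′ to 3′ along the gene. Capitals mark every match on either strand to the 4 motifs searched. The AP-1 site was searched as TGANTCA, and the NF-kB site by its consensus. The core letters that NFAT proteins recognise were searched as GGAAA, which on the opposite strand overlap the end of these NF-kB letters. The TATA box was searched as TATAAA.
Lcp2, chr11:34046678-34046927, plus strand: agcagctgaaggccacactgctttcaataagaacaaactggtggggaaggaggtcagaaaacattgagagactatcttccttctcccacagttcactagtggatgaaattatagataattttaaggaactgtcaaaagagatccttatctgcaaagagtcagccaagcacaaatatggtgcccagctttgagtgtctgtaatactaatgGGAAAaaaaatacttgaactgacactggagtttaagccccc
Clec4d, chr6:123261857-123262106, plus strand: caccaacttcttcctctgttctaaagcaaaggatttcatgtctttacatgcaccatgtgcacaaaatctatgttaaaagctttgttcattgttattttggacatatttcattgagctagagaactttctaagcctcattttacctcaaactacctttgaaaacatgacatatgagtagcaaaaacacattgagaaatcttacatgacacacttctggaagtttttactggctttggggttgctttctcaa
Clec4e, chr6:123289872-123290121, minus strand: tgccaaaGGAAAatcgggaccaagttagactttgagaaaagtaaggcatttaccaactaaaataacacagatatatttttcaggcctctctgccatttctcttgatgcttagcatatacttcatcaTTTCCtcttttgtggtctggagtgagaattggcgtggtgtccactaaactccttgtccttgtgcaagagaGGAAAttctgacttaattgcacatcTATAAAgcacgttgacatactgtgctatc
Il6, chr5:30012864-30013113, plus strand: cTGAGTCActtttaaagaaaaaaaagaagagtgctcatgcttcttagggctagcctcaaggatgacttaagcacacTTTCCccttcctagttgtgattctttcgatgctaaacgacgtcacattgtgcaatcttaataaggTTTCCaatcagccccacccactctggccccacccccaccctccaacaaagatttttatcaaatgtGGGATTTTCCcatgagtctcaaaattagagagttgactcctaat
Mmp3, chr9:7445572-7445821, plus strand: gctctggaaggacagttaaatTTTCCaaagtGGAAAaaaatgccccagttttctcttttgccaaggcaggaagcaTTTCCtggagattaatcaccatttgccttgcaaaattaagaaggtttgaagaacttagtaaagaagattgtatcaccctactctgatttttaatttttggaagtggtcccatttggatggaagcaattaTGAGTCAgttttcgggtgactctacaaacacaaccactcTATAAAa
Mmp13, chr9:7272264-7272513, plus strand: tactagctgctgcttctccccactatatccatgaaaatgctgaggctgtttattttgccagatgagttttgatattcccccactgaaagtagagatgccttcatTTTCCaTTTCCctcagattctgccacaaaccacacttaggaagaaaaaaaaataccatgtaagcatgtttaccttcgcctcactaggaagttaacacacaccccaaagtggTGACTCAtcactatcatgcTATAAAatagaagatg

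The AP-1 letters began 46 bases before the start of Mmp3, 35 before Mmp13 and 249 before Il6. The NF-kB letters of Il6 began 44 bases before its start. No other of the 43 genes with a window held the NF-kB letters searched, and other forms of the site were not looked for. Clec4d held none of the 4 motifs and its neighbour Clec4e held GGAAA letters 3 times and a TATA box. Over the 63 windows of the 43 genes found in the RefSeq table, AP-1 letters occurred in 7 (11.1%), against 6.75% of all 32851 windows. The other genes with AP-1 letters were AA467197, Fgf12, Lpin3 and Tafa5. GGAAA occurred in 42.9% of the genes' windows against 55.6% of all, and TATAAA in 12.7% against 12.4%. The NF-kB letters searched occurred in 1.59% against 1.41%, which holds for that form of the site only. These are counts of letters, not sites of binding.

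By position in the same RefSeq build, the 57 genes lay on 17 chromosomes. Clec4d and Clec4e were direct neighbours, and Mmp3 and Mmp13 had 2 protein-coding genes between them, as did Lmo7 and Tbc1d4. Rcan1 lies on chromosome 16, which also carries Fgf12, Il1rap and Pla1a. None of the 57 genes was among the 50 protein-coding genes on either side of Rcan1.

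Over the 57 genes the mean difference ran from 0.72 to 3.41 with a median of 1.24 on the log2 scale. The median difference was 1.09 in pair 1 and 1.49 in pair 2, and 36 genes differed more in pair 2 and 21 more in pair 1. The ApoE null arrays lay close together, with a median gap of 0.17 and a largest gap of 0.75. The double null arrays lay farther apart, with a median gap of 0.47 and a largest gap of 4.69. They were more than 1 apart for 14 of the 57 genes, 12 of them higher on double null array 2. Of the 9323 genes with a double null mean of 6 or more, 503 (5.4%) had such a gap. Over those 9323 genes the double null arrays also lay farther apart than the ApoE null arrays, with median gaps of 0.24 and 0.13. The same values chose the 57 genes, so the contrast with the 9323 is partly set by the rule.

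**Figure D1:**
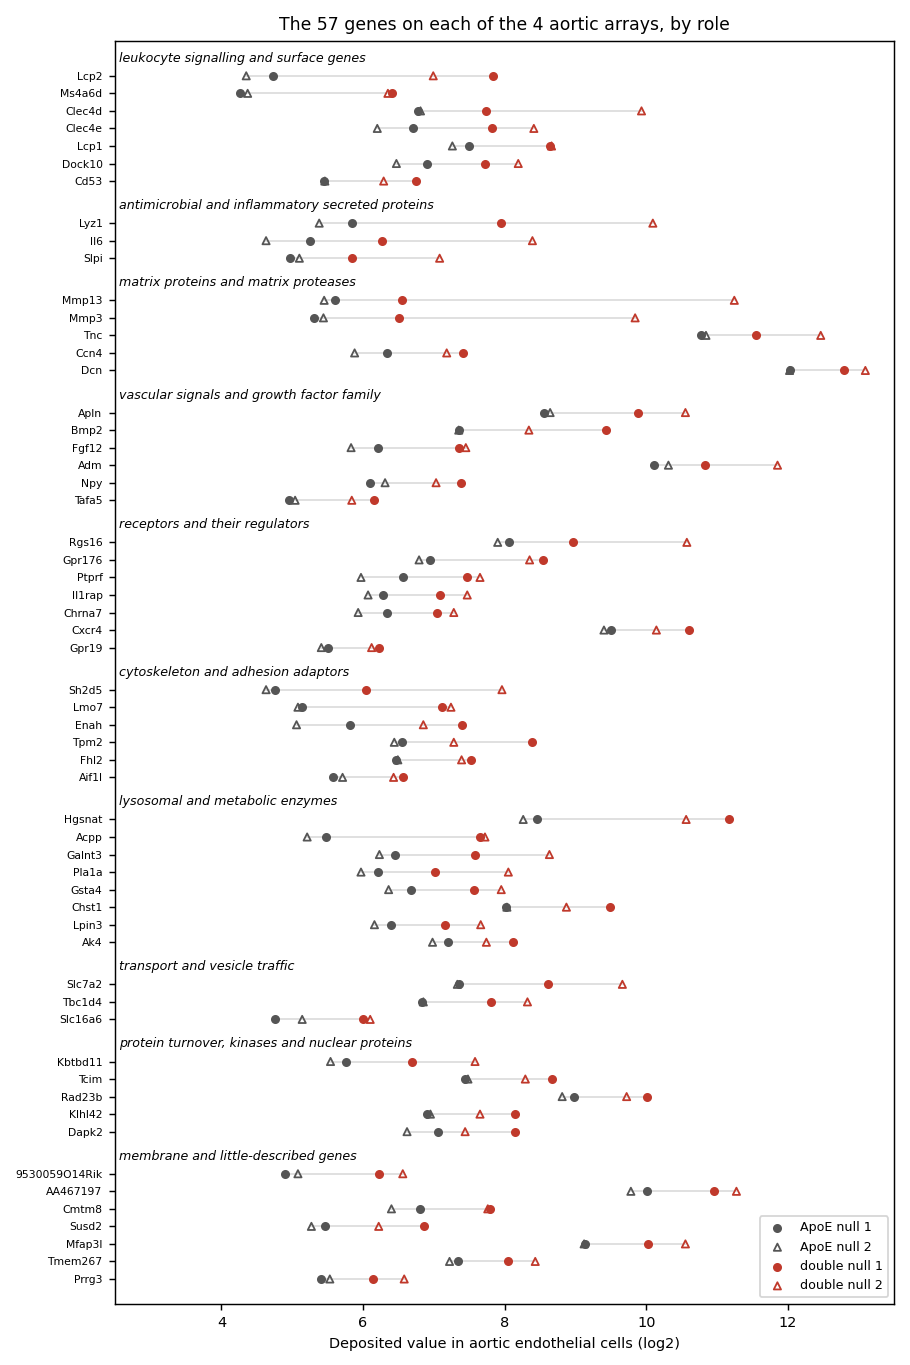
Deposited log2 value (horizontal axis) of the 57 genes on the 4 aortic arrays, grouped by role, with grey symbols for ApoE null and red symbols for double null, circles for array 1 and triangles for array 2. Red symbols lie to the right of grey ones in every row, which the rule required within each same-numbered pair. The red triangles of Mmp13, Mmp3, Lyz1, Clec4d and Il6 stand far from the red circles.

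Of the 57 genes, 7 are known from leukocyte signalling or the leukocyte surface, and 1 of them, Lcp2, had the largest smaller pair difference of all. Lcp2, the adaptor SLP-76 that relays immune receptor signals in T cells, mast cells and platelets, had log2 values of 4.73 and 4.35 on the ApoE null arrays and 7.83 and 6.99 on the double null arrays. Its ApoE null values lay near the array medians (4.45 to 4.50), and the mean difference was 2.87, or 7.32-fold. A second, dim probe set of Lcp2 had means of 2.90 and 3.74, below the array medians, with pair differences of 1.17 and 0.52. Ms4a6d, a membrane protein of myeloid cells, read 4.26 and 4.37 against 6.41 and 6.35. By their brightest probe sets, Lcp2 and Ms4a6d went from the level of the array median to well above it on both double null arrays. Lcp1, the actin-bundling protein L-plastin of leukocytes, read 7.49 and 7.26 against 8.64 and 8.66, and its second probe set differed by 1.21. Cd53, a leukocyte tetraspanin, read 5.45 and 5.46 against 6.75 and 6.29. The double null arrays nearly coincided for Ms4a6d and Lcp1.

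Clec4e (Mincle) and Clec4d are C-type lectin receptors through which myeloid cells sense microbial glycolipids and dead cells. Clec4e read 6.71 and 6.20 in ApoE null cells and 7.82 and 8.41 in double null cells. Clec4d read 6.77 and 6.81 against 7.73 and 9.93. Both neighbours were higher on double null array 2 than on array 1, Clec4d by far more than Clec4e. Dock10, an exchange factor for small GTPases, differed by 0.82 in pair 1 and 1.71 in pair 2.

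Among secreted inflammatory and antimicrobial proteins, Lyz1 had the largest mean difference of all 57 genes. Lyz1, a lysozyme gene, read 5.85 and 5.38 in ApoE null cells and 7.95 and 10.09 in double null cells, a mean difference of 3.41. Its probe set carries the suffix that marks probes shared with other transcripts, and signal from Lyz2, the neighbouring and closely similar lysozyme gene, cannot be told apart from that of Lyz1. A second probe set of the same kind differed by 3.27, and the remaining one differed by 0.02 between means of 3.38 and 3.40. Il6, the cytokine interleukin-6, read 5.25 and 4.63 against 6.27 and 8.39. Slpi, a secreted inhibitor of leukocyte proteases, read 4.97 and 5.10 against 5.85 and 7.08. For all 3 genes double null array 2 was the highest array by more than 1.

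The matrix proteases showed the widest split between the double null arrays. Mmp13, the collagenase-3 gene, read 5.60 and 5.45 in ApoE null cells, 6.55 on double null array 1 and 11.24 on array 2. Mmp3, stromelysin-1, read 5.31 and 5.44 against 6.51 and 9.84. Most of their mean differences of 3.37 and 2.80 came from double null array 2, with 5.78 and 4.41 in pair 2 beside 0.95 and 1.20 in pair 1. Dcn, the collagen-binding proteoglycan decorin, read 12.02 and 12.02 against 12.79 and 13.09. Tnc, the matrix glycoprotein tenascin C, read 10.77 and 10.84 against 11.54 and 12.46. Ccn4, a matricellular protein of the CCN family, read 6.34 and 5.88 against 7.41 and 7.18. All 5 of these matrix genes differed more in pair 2 than in pair 1.

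**Figure D2:**
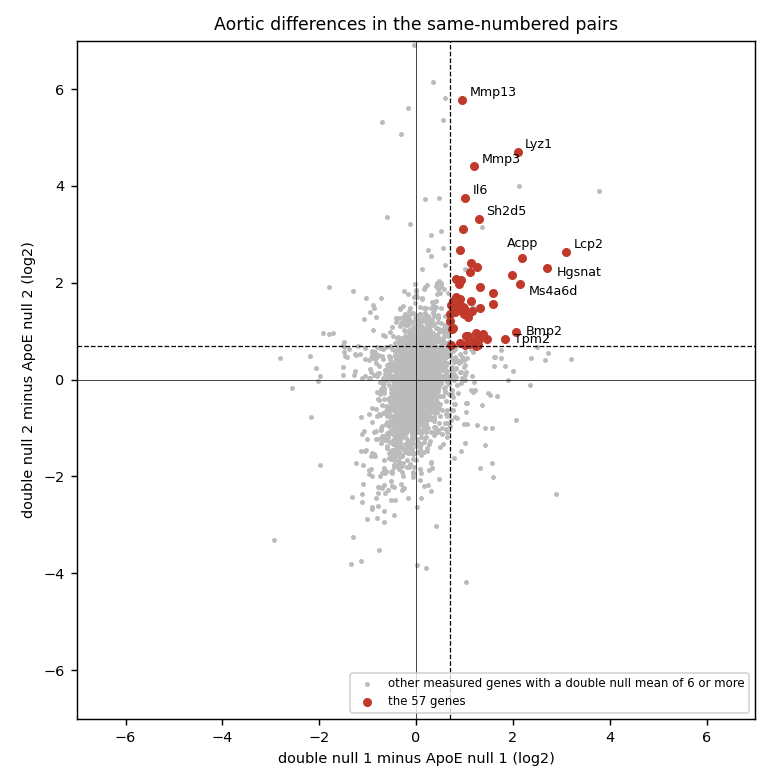
Double null minus ApoE null difference (log2) in pair 1 (horizontal axis) against pair 2 (vertical axis) for the 57 genes (red) and all other genes with a double null mean of 6 or more (grey, the genes left out by name included), with dashed lines at the limit of 0.7. Mmp13 reached 5.78 in pair 2 and 0.95 in pair 1, whereas Lcp2 had 3.10 in pair 1 and 2.64 in pair 2.

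Vascular signals made up a further group. Apln encodes apelin, a peptide of sprouting endothelium, and read 8.55 and 8.64 in ApoE null cells and 9.88 and 10.55 in double null cells. Adm, the vasodilator adrenomedullin, read 10.11 and 10.31 against 10.83 and 11.85 by a probe set with the same suffix as that of Lyz1. The other probe set of Adm, also bright, differed by 0.58 in pair 1 and 1.85 in pair 2. Bmp2, a bone morphogenetic protein, read 7.36 and 7.35 against 9.43 and 8.34. Bmp2 was 1 of 2 genes with double null array 1 more than 1 above array 2; the other was Tpm2, a tropomyosin, which read 6.55 and 6.44 against 8.39 and 7.28. Npy, the neuropeptide Y gene, differed by 1.28 in pair 1 and 0.72 in pair 2. Fgf12, an intracellular relative of the fibroblast growth factors, differed by 1.14 and 1.62, and Tafa5, a secreted TAFA family protein, by 1.21 and 0.80.

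Of receptors and their regulators, Cxcr4, the receptor for the chemokine CXCL12, read 9.50 and 9.40 against 10.60 and 10.14. Rgs16, which speeds the shut-off of G protein signals, read 8.06 and 7.90 against 8.96 and 10.57. Gpr176, an orphan G protein-coupled receptor, read 6.95 and 6.79 against 8.54 and 8.35. Gpr176 differed by nearly the same amount in both pairs (1.59 and 1.56), whereas Rgs16 differed by 0.90 and 2.67. The remaining receptors were Il1rap, the accessory chain of the interleukin-1 receptor (mean difference 1.10), the receptor phosphatase Ptprf (1.29), the nicotinic receptor subunit Chrna7 (1.03) and the orphan receptor Gpr19 (0.72, the smallest of the 57).

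Of 6 cytoskeletal and adhesion adaptors, 4 had an ApoE null mean under 6. Lmo7, a LIM-domain protein of cell junctions, read 5.14 and 5.08 against 7.11 and 7.24. Enah, which promotes actin filament growth, read 5.81 and 5.06 against 7.39 and 6.85. Sh2d5, an SH2-domain adaptor, read 4.75 and 4.63 against 6.04 and 7.96. Lmo7 and Enah differed by at least 1.59 in both pairs, and Sh2d5 by 1.29 and 3.32. Fhl2, a LIM-domain cofactor, and Aif1l, an actin-binding protein, had mean differences of 0.99 and 0.86.

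Enzymes of the lysosome and of metabolism included the genes next to Lcp2 in the order by smaller pair difference. Hgsnat, the lysosomal acetyltransferase that helps break down heparan sulfate, read 8.45 and 8.26 in ApoE null cells and 11.17 and 10.56 in double null cells, a 5.68-fold mean difference. Acpp, an acid phosphatase, read 5.48 and 5.21 against 7.65 and 7.72, and its other probe sets, both dim, differed by 1.72 and 0.84. Each double null array exceeded both ApoE null arrays by more than 2 for both genes. Galnt3, which starts mucin-type glycosylation, read 6.45 and 6.23 against 7.58 and 8.63. Gsta4, the glutathione transferase for lipid peroxidation products, read 6.68 and 6.36 against 7.56 and 7.95. Pla1a, a phosphatidylserine phospholipase, Chst1, a carbohydrate sulfotransferase, Lpin3, of the phosphatidate phosphatase family, and Ak4, a mitochondrial adenylate kinase, had mean differences of 1.45, 1.15, 1.12 and 0.83.

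Slc7a2, a transporter of arginine and other cationic amino acids, read 7.36 and 7.33 against 8.61 and 9.66. Slc16a6, of the monocarboxylate transporter family, read 4.76 and 5.14 against 6.00 and 6.10, and Tbc1d4, a Rab regulator of glucose transporter traffic, read 6.83 and 6.85 against 7.81 and 8.32. All 3 read higher on double null array 2 than on array 1. Rad23b, which carries ubiquitinated proteins to the proteasome, Kbtbd11 and Klhl42, of the kelch and BTB family, Tcim and the kinase Dapk2 had mean differences of 0.97, 1.49, 0.97, 1.02 and 0.96. For Rad23b the other probe sets above a double null mean of 6 differed by less, at 0.39 and 0.23, and the one of Tbc1d4 by 0.27. The less described genes AA467197 (10.01 and 9.78 against 10.96 and 11.27), 9530059O14Rik, Cmtm8, Susd2, Mfap3l, Tmem267 and Prrg3 had mean differences between 0.90 and 1.40.

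The limit of 0.7 cut a continuous range of values. Just inside it were Klhl42 (1.24 in pair 1 and 0.70 in pair 2), Tmem267 (0.71 and 1.21) and Chrna7 (0.71 and 1.35), and just outside were Wnt9a (1.07 and 0.69), Ccdc88c (1.09 and 0.69) and Angptl4 (0.69 and 1.15). Pair 2 alone passed the limits for 446 genes (2.45% of those measured) and pair 1 alone for 158 (0.868%), or 438 and 153 with the genes left out by name removed.

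Other probe sets of the same genes measured the same arrays and are likewise a description. Of the 57 genes, 33 had 60 further probe sets, of which 46 were higher in both pairs. All 18 with a double null mean of 6 or more were higher in both pairs, and 10 of these passed 0.7 in both. Lower means in double null cells came from 7 dim probe sets of Ms4a6d, Enah, Galnt3, Tpm2, Gpr19 and Chrna7, with differences from -0.07 to -0.30.

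The cultures carried endothelial markers throughout. All 26 markers on the endothelial list lay above the array median on all 4 arrays, and their summed linear signal was 54137 and 51907 in ApoE null cells and 53654 and 45609 in those lacking both. Cdh5, the junction protein VE-cadherin, read 11.99 and 11.97 against 12.10 and 11.91. Vwf, the von Willebrand factor gene, read 9.41, 9.26 and 9.44 on 3 arrays and 6.63 on double null array 2. Bulk arrays cannot tell fewer cells of a type from less RNA per cell.

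Because several of the 57 genes are best known from leukocytes, the macrophage list was set beside them. Of its 23 markers, 4 (Msr1, Cd14, Laptm5 and Lgals3) lay above the median on all 4 arrays, and the summed linear signal was 2153 and 2012 in ApoE null cells and 2701 and 3064 in those lacking both. The defining markers Adgre1 (F4/80), Itgam, C1qa and Tyrobp were near the bottom of the scale on every array, between 2.66 and 3.91. Laptm5 read 5.69 and 5.49 against 6.82 and 6.11, and Cd14 6.88 and 6.94 against 7.38 and 8.12. Msr1, a macrophage scavenger receptor, ran the other way with 6.46 and 6.60 against 4.71 and 4.76. None of 9 neutrophil markers lay above the median on any array, and of 12 lymphocyte markers only Cd4 and Cd8a did, just above it. The part of these markers in the higher values of Lcp2, Lcp1, Cd53, Clec4d and Clec4e was not tested.

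Several mesenchymal markers were highest on double null array 1, and others were not. Of 18 fibroblast and mesenchymal markers, 14 lay above the median on all 4 arrays, 12 of the 18 read highest on double null array 1, and the summed signal was 27448 and 27567 in ApoE null cells and 33319 and 29525 in those lacking both. Col1a2 read 8.80 and 8.47 in ApoE null cells, 10.87 on double null array 1 and 7.63 on array 2, and Lum 7.74, 7.66, 10.10 and 7.55 in the same order. Thy1 instead was highest on double null array 2 (9.99, 9.95, 9.86 and 11.30), S100a4 was lower on both double null arrays (11.97, 11.90, 11.47 and 10.41), and Vim lay between 13.79 and 13.92 throughout. Acta2, smooth muscle actin, followed with 10.63, 10.57, 11.99 and 10.05, and the sum of the 12 smooth muscle markers was 11143 on double null array 1 against 7338 to 7665 on the other arrays. Acta2 and Tagln (9.44, 9.25, 10.64 and 9.02) showed this, whereas Mylk was highest on array 2 (9.01), Cald1 lay between 12.08 and 12.23, and the defining markers Myh11, Cnn1, Myocd and Synpo2 lay between 3.17 and 4.21 on every array. Dcn, on this list and among the 57 genes, was high on both double null arrays. The part of these markers in the values of Dcn, Tpm2 and Bmp2 was not tested.

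**Figure D3:**
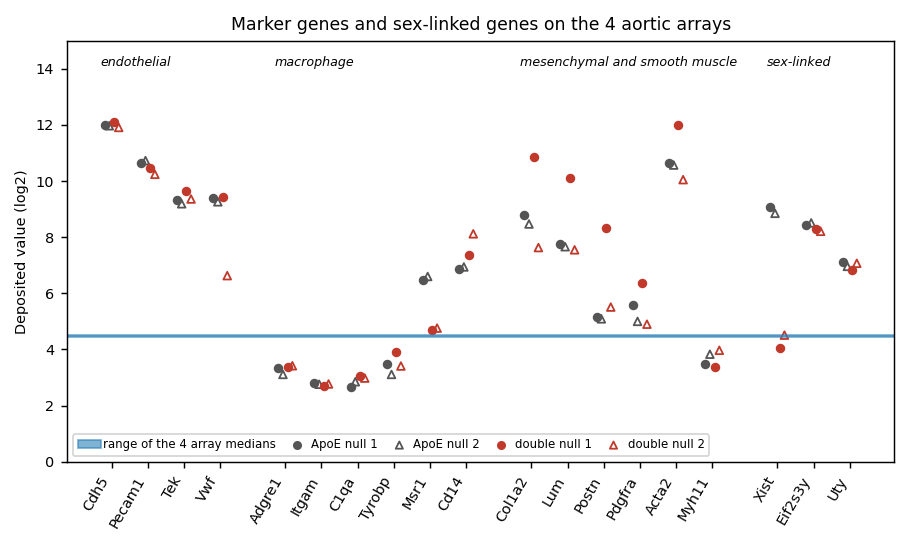
Deposited log2 value (vertical axis) of endothelial, macrophage, mesenchymal and smooth muscle markers and of sex-linked genes on the 4 aortic arrays, with the band of the array medians (4.45 to 4.50) in blue. Macrophage-defining markers lie below the band on all 4 arrays, Col1a2, Lum and Acta2 are highest on double null array 1, Vwf is lowest on double null array 2, and Xist is high in ApoE null cells only.

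Xist, the transcript of the inactive X chromosome, differed with the genotype labels: 9.06 and 8.85 in ApoE null cells and 4.04 and 4.51 in double null cells. The Y-linked gene Eif2s3y read 8.42 and 8.51 against 8.29 and 8.21, much the same on all 4 arrays, as did Uty at 6.83 to 7.13. These genes were looked at after the values were seen. The cells' sex makeup, as far as Xist reflects it, and the loss of Dscr-1 cannot be told apart in the aortic differences. Of the 57 genes, only Apln and Prrg3 are X-linked.

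Rcan1, the gene targeted in Dscr-1 null mice, did not read lower in double null cells by either probe set (9.99 and 9.92 against 10.09 and 10.26; 6.30 and 5.95 against 6.65 and 6.86). Where the probes lie relative to the deleted part was not given, so this checks no label, and every direction here rests on the labels. Apoe, which the labels give as deleted in all aortic cultures, read 7.27, 7.17, 8.29 and 6.69, above the array medians on every array, and where its probes lie relative to the deletion was not given. In liver the signal of the same Apoe probe set was 19937 to 21510 on the 4 arrays with ApoE and 79.8 to 305.0 on the 4 without it, as the labels state. Those lower values also lay above the liver array medians (32.2 to 44.7).

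Of the 57 genes, 9 belong to pathway or marker lists, whose other members were read from a limma fit in the aortic cells. The adjusted p covered all 22927 probe sets above the array median on at least 2 arrays, and 11647 genes were read from them. That fit called 1 gene higher (0.00859%) and 1 lower (0.00859%) at an adjusted p under 0.05, neither of them among the lists, and at an unadjusted p under 0.05 it had 311 higher (2.67%) and 265 lower (2.28%). With the array pair as a block it called 0, also 0 without either ApoE null array, 1964 without double null array 1 and 465 without double null array 2. Each fit without an array leaves 1 group with a single array that is assumed to vary like the other group, so the last 2 counts rest on the spread of the close ApoE null arrays alone. Across all genes tested, 47.9% were higher and the median difference was -0.01.

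Beside Mmp3 and Mmp13, the list of matrix enzymes and inhibitors had 20 other genes tested, 10 higher and 10 lower, with a median difference of 0.02 and 2 higher and 1 lower at the unadjusted limit. The protease gene Adamts4 read 7.50 and 7.30 against 7.85 and 8.85 (difference 0.95 ± 0.36 SE, adjusted p = 1 by limma), and Timp1, a protease inhibitor, was higher on both double null arrays (0.71 ± 0.27, adjusted p = 1 by limma). Beside Dcn and Tnc, 34 other matrix chains had a median of 0.09 and 3 higher and 3 lower at the unadjusted limit, with Col4a1 and Col4a2 of the basement membrane at 0.53 and 0.52 and elastin (Eln) at -1.02 (limma adjusted p = 0.873, 0.877 and 0.731).

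Beside Bmp2, 21 of 27 other genes of TGF-beta and BMP signalling had lower means, with a median of -0.25 and 0 higher and 4 lower at the unadjusted limit. Id2, a target of BMP signals, read 10.92 and 10.76 in ApoE null cells and 9.62 and 7.50 in double null cells (-2.28 ± 0.69, limma adjusted p = 0.978). Bmp4 and Id3 had differences of -1.01 and -0.75 (limma adjusted p = 1 for both). So the ligand gene Bmp2 lay above, and these genes below, their ApoE null values on both double null arrays.

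Beside Cxcr4, 8 of 12 other chemokine genes had higher means (median 0.38), 1 higher and 0 lower at the unadjusted limit. Ccl2, which draws monocytes, read 12.58 and 12.50 against 12.90 and 13.62, and the scavenging receptor gene Ackr3 had a difference of -1.46. Beside Il6, 11 of 17 interleukin and TNF signalling genes did (median 0.11), 1 higher and 2 lower at the unadjusted limit. Irak3 read 5.61 and 5.60 against 6.05 and 6.88, whereas Il15 read 7.55 and 7.53 against 7.13 and 6.15, and Il6st, a receptor chain for interleukin-6, 11.36 and 11.37 against 11.02 and 10.91. Beside Gsta4, 17 of 24 genes of oxidative and metal stress did (median 0.40), 6 higher and 2 lower at the unadjusted limit. Hmox1, heme oxygenase, read 9.99 and 10.06 against 10.65 and 11.22 (0.91 ± 0.23, limma adjusted p = 0.807), and Gstt1, another glutathione transferase, had a difference of -0.84 (limma adjusted p = 0.686). Beside Slc7a2, 12 of 19 solute carrier and channel genes had higher means (median 0.15), 2 higher and 2 lower at the unadjusted limit, and Atp1b1, a sodium pump subunit, had a difference of -1.12 (limma adjusted p = 0.615). None of these genes passed the adjusted limit.

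The liver arrays took no part in choosing the genes and allow a test. Of the 57 genes, 49 passed the filter on low signal, which asked for a probe set above the array median on at least 2 arrays, and 8 did not (Gpr176, Ccn4, Clec4d, AA467197, Mmp13, Fhl2, Lpin3 and Cxcr4). Liver signal lay above the array median on all 8 arrays for 22 genes. That is 38.6% of the 57, beside 39.2% of all genes.

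In liver double null against ApoE null, the comparison closest to the aortic one, limma called 0 of the 49 genes and 0 of 14758 genes (0%) in either direction. At an unadjusted p under 0.05 it had 0 of the 49 higher and 1 lower (2.04%), beside 2.83% and 2.42% of all genes. Of the 49, 23 had higher and 26 lower means, with a median difference of -0.01, and 50.4% of all genes had higher means with a median of 0.00. Both double null livers lay above both ApoE null livers for 11 genes (22.4%, beside 16.6% of all genes) and below for 7 (14.3%, beside 15.6%). The 11 were Cd53, Chst1, Dock10, Lcp2, Lyz1, Ptprf, Slpi, Susd2, Tbc1d4, Tcim and Tpm2. The shares lie near those of all genes.

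Lcp2 had liver signals of 32.1 and 27.2 in ApoE null mice, 117.3 and 42.0 in double null mice, a difference of 0.95 ± 0.50 SE on the log2(signal + 16) scale (limma adjusted p = 0.854). Cd53 had 241.9 and 298.9 against 496.5 and 392.3 (0.68 ± 0.37, limma adjusted p = 0.867). The double null livers did not overlap the ApoE null livers for either gene. Susd2, a sushi-domain membrane protein, had signals of at most 14.5 against 48.0 and 45.9 (1.16 ± 0.50, limma adjusted p = 0.761). Dock10 had 3.5 and 62.7 against 96.3 and 66.0 (1.29 ± 0.67, limma adjusted p = 0.848). Klhl42 ran the other way with 126.3 and 101.8 against 49.5 and 59.1 (-0.88 ± 0.35, limma unadjusted p = 0.0354 and adjusted p = 0.713). The Dock10 difference was 0.29 without ApoE null liver array 1 and 2.30 without array 2, and the Lcp2 difference was 0.35 without double null liver array 1 and 1.55 without array 2. The Susd2 difference was 1.88 with an offset of 1 and 0.54 with an offset of 64.

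**Figure D4:**
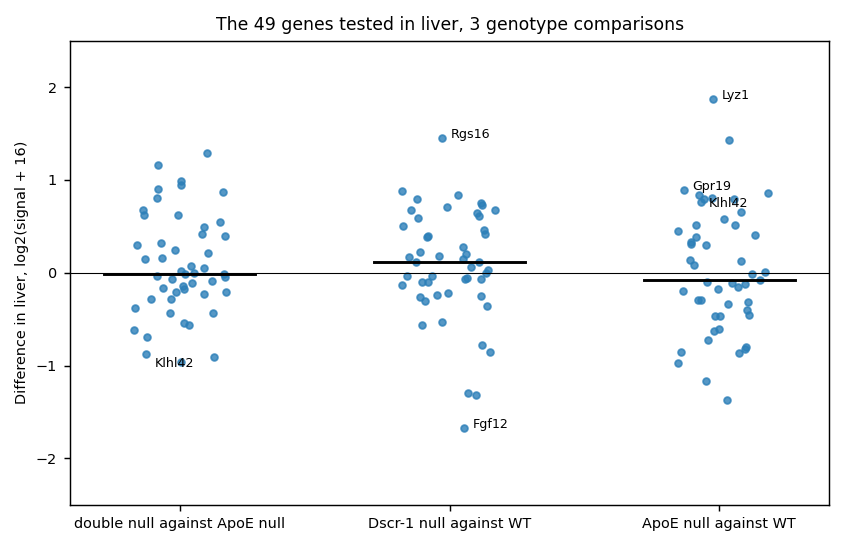
Difference on the log2(signal + 16) scale (vertical axis) of the 49 genes tested in liver in each of 3 genotype comparisons, 1 point a gene, with a black line at the median and names at an unadjusted limma p under 0.05. The medians lie at -0.01, 0.12 and -0.08, and points spread to both sides of 0 in each comparison.

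In liver Dscr-1 null against WT, where ApoE is intact, limma called 0 of the 49 genes, 1 of all genes higher (0.00678%) and 0 lower (0%). At the unadjusted limit 1 of the 49 was higher (1.92% of all genes) and 1 lower (1.9%). Rgs16 had signals of 137.1 and 297.9 in WT and 428.6 and 795.2 in Dscr-1 null livers (1.45 ± 0.49, limma adjusted p = 0.924), read by another probe set than in the aorta. The probe set of the aortic rule gave 1.05, and leaving out WT liver array 1 gave 0.94. Fgf12, also read by another probe set, had 54.0 and 35.2 against 1.9 and 3.9 (-1.67 ± 0.43, limma adjusted p = 0.885) at signals near or below the array medians (32.2 to 44.7), and its difference depended on the offset (-3.57 with 1 and -0.69 with 64). Ptprf, read by the aortic probe set, had 953.8 and 1335 against 2329 and 1780 (0.84 ± 0.38, limma adjusted p = 1). Prrg3 (-1.30 ± 0.57) and Npy (0.88 ± 0.43) came next, both dim, and the Npy difference was 0.49 without WT liver array 1. Of the 49 genes, 27 had higher means with a median of 0.12, beside 48.8% of all genes and a median of -0.01. Both Dscr-1 null livers lay above both WT livers for 10 of the 49 (20.4%, beside 16.3%) and below for 5 (10.2%, beside 16.9%).

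In liver ApoE null against WT, where both genotypes carry Dscr-1, limma called 0 of the 49 genes and of all genes 1 higher (0.00678%) and 1 lower (0.00678%). At the unadjusted limit 3 of the 49 were higher (6.12%, beside 3.46% of all genes) and 0 lower (2.24% of all genes). Lyz1 had signals of 555.7 and 268.8 in WT, 564.2 and 362.5 in Dscr-1 null livers, 1871 and 1140 without ApoE and 3575 and 2004 without both (ApoE null against WT, 1.87 ± 0.52, limma unadjusted p = 0.00747 and adjusted p = 0.613). All 4 livers lacking ApoE exceeded all 4 with ApoE, and the same probe set as in the aorta was read, with the same doubt about Lyz2. Gpr19 had 42.7 and 26.1 against 84.4 and 68.3 (0.89 ± 0.37), and Klhl42 63.0 and 49.9 against 126.3 and 101.8 (0.84 ± 0.35; limma adjusted p = 0.756 for both). Tnc (1.43 ± 0.66, limma adjusted p = 0.793) was dim in liver, from 2.0 to 71.8, and its difference was 0.78 without ApoE null liver array 1, 2.91 with an offset of 1 and 0.63 with an offset of 64. Of the 49 genes, 23 had higher means with a median of -0.08, beside 49.6% of all genes and a median of 0.00. Both ApoE null livers lay above both WT livers for 9 of the 49 (18.4%, beside 17.3%) and below for 8 (16.3%, beside 16.7%).

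**Figure D5:**
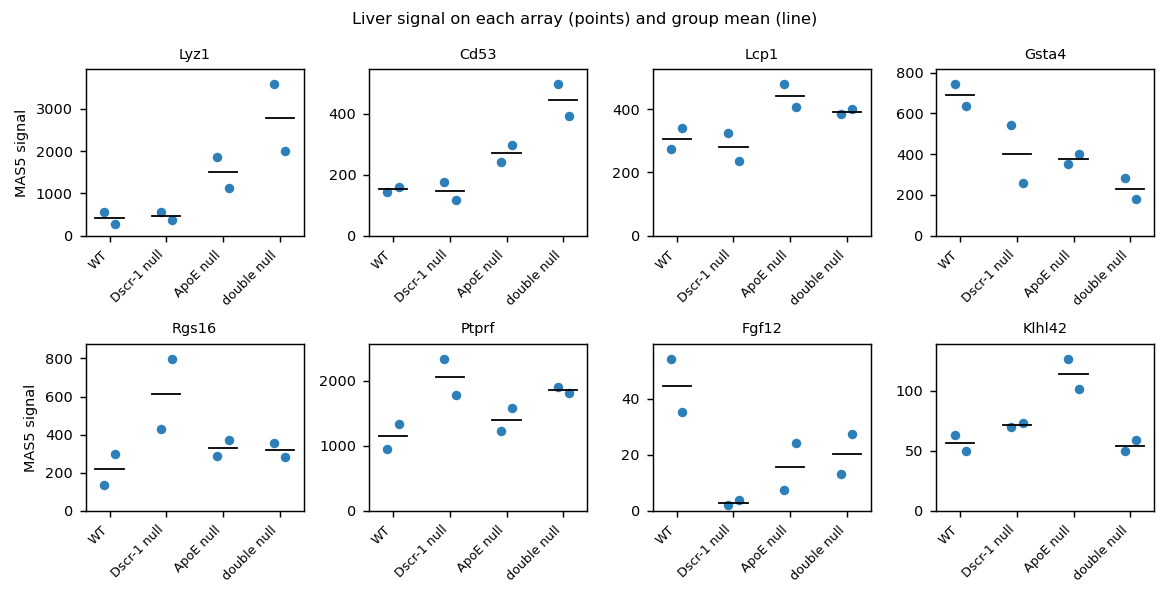
Deposited liver signal (vertical axis, linear, from 0) of 8 of the 57 genes in the 4 genotypes, 2 arrays each as points and the group mean as a line. Lyz1 is higher in all 4 livers lacking ApoE than in all 4 with ApoE, Gsta4 is highest in WT, and Klhl42 is highest in ApoE null livers.

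By role, the 6 leukocyte signalling and surface genes tested in liver had a median double null minus ApoE null difference of 0.46, with 5 of 6 higher, and the 3 antimicrobial and inflammatory genes a median of 0.87, with 3 of 3 higher. The vascular signals and growth factor family had -0.28 with 1 of 6 higher, the cytoskeletal adaptors -0.09 with 1 of 5, and the lysosomal and metabolic enzymes 0.07 with 4 of 7. Transport and vesicle traffic had 0.49 with 3 of 3 higher, matrix genes -0.21 with 1 of 3, and receptors and their regulators -0.05 with 2 of 5. Protein turnover, kinases and nuclear proteins had -0.11 with 2 of 5, and membrane and little-described genes -0.20 with 1 of 6. Across all genes tested, 50.4% had higher means. In Dscr-1 null against WT the leukocyte genes had -0.19 with 1 of 6 higher and the transport genes 0.68 with 3 of 3, beside 48.8% of all genes. These roles were assigned with the values known and none of the genes passed the adjusted limit, so the counts are a description.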

How the data were processed

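RNA was measured on 12 Affymetrix mouse arrays. The deposited liver values are MAS5 signal intensities, with the array average set to 100 by the authors. The deposited aortic values are on a log2 scale, and their normalization was not given in the sources used here (Transcriptome Analysis Console stands in the processing notes of the submitters). The 2 tissues were therefore fitted apart and no level was set across them. Array number limits the precision.

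Of 45037 probe sets, 34945 named 1 gene, 932 several and 9160 none in the platform annotation, and 64 control sets were dropped. For each gene the brightest probe set in the tissue was used. Liver intensities were tested as log2(signal + 16). limma 3.58.1 in R 4.3.3 (lmFit, eBayes, Benjamini-Hochberg) was run over all genes with a probe set above the array median on at least 2 arrays, after a check on simulated data. The members and lists were chosen with earlier results of these data known. Named were the 25 genes with the largest smaller pair difference, every gene of the 57 in a list with up to 4 others of that list by p, the 5 lowest p in each liver comparison, the 5 brightest, those beside the limit, Apoe and Rcan1, and genes with a contrary probe set. The rule leaves the other members without values, and those printed for them were chosen after they were seen, as were Xist, the Y-linked genes and the list genes of the closing section. Same-numbered aortic arrays share a prefix in their source names, and their deviations from the group means correlated at 0.294. The numbers were therefore taken as pairs in choosing the genes. The aortic SE and p-values printed come from the fit without a pair term. Motifs were counted in Python 3.11.15.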

Additional observations from a re-analysis of the deposited data

Results flagged for a closer look

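For 7 of the 49 genes tested in liver (14.3%), all chosen as higher on both double null arrays in aortic cells, both double null livers lay below both ApoE null livers, so the arrays of the tissues went opposite ways. This share is near the 15.6% of all genes tested in liver that had both double null livers below, and the difference between the tissues was not tested. On the log2(signal + 16) scale the liver differences were -0.88 for Klhl42, -0.69 for Gsta4, -0.56 for Aif1l, -0.43 for Cmtm8, -0.28 for Bmp2, -0.21 for Rad23b and -0.16 for Lcp1. Gsta4, the transferase for lipid peroxidation products, had liver signals of 741.9 and 637.7 in WT, 544.0 and 257.9 in Dscr-1 null livers, 351.6 and 401.1 without ApoE and 282.2 and 180.2 without both, whereas its aortic log2 values were 6.68 and 6.36 against 7.56 and 7.95. Aif1l and Rad23b were read by another probe set in liver than in aortic cells.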

How the results depend on the processing

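The number of genes past the aortic limits was 124 with a pair difference of 0.5, 19 with 1, 178 when the group means alone had to differ by 0.7, and 153 to 438 when 1 pair was left out. Quantile normalization gave 60 genes, 55 of them among the 57. With the array pair as a replicate block the aortic fit called 0 genes in place of 2, and leaving out 1 array gave 0 to 1964. In liver none of the 49 genes was called under any alternative run. The number of all genes called in Dscr-1 null against WT was 1, and became 0 with an offset of 1, 5 with an offset of 64 and 0 to 1 without 1 array. In ApoE null against WT it was 2, and became 0, 13 and 0 to 2. As single arrays were left out, the median difference of the genes ran from -0.06 to 0.14 in double null against ApoE null. It ran from -0.08 to 0.04 in ApoE null against WT, so its sign was not fixed in these comparisons. In Dscr-1 null against WT it ran from 0.00 to 0.14 and did not turn negative. The liver differences of the 5 genes with the lowest p in each comparison kept their sign under the alternatives run, which for Fgf12 did not include the probe set of the aortic rule. In liver the replicate block left 0, 1 and 2 genes called, and same-numbered deviations correlated at 0.001 to 0.021, so the numbers are only names there. With 2 arrays a group, and signals of many of the genes near the array median in liver, small differences were not detectable. Large ones among the 49 were not called either, such as 1.87 for Lyz1 in ApoE null against WT (limma adjusted p = 0.613). The lack of calls in liver therefore does not show that the genes were unchanged there. The causes of these shifts were not tested.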

Other observations

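Lists that hold none of the 57 genes were read in the same aortic fit, in which limma called no list gene. Across all genes tested there, 47.9% had higher means. At an unadjusted limma p under 0.05, 2.67% were higher and 2.28% lower. Only some of these lists are given below. Flatter ones were p53 targets (10 of 19 higher, median 0.01), adhesion molecules (15 of 34, median -0.07) and lipid handling (13 of 28, median -0.03). Of 22 genes of ER stress and amino acid response, 22 had higher means in double null cells (median 0.31, 2 at an unadjusted p under 0.05). Slc7a5, an amino acid transporter, read 8.32 and 8.13 against 8.76 and 8.93, and Atf3, a stress transcription factor, 8.79 and 8.59 against 9.24 and 9.93. Of 27 interferon response genes, 4 had higher means (median -0.37, 0 at the unadjusted limit). Ifit3 read 10.80 and 10.68 in ApoE null cells, 8.24 on double null array 1 and 10.51 on array 2, so array 1 carried that difference. Of 17 Wnt signalling genes, 5 had higher means (median -0.55, 5 lower at the unadjusted limit), and Sfrp2, a secreted Wnt antagonist, read 10.58 and 10.62 against 7.93 and 3.80. Of 12 complement and acute phase genes, 10 had higher means (median 0.44), with 0 higher and 0 lower at the unadjusted limit. Lcn2, the lipocalin of innate defence, read 7.13 and 7.40 against 7.68 and 12.77 (2.96 ± 1.63 SE). It was high on the same array as Mmp13, Mmp3 and Il6. Of 19 calcineurin, NFAT and RCAN genes, 11 had higher means (median 0.14, 0 higher and 1 lower at the unadjusted limit). Ppp3ca, a catalytic subunit of calcineurin, read 10.67 and 10.64 against 10.34 and 10.03, whereas Ptgs2, cyclooxygenase-2, read 10.70 and 10.86 against 11.19 and 12.65, and Rcan2 6.11 and 5.62 against 6.88 and 6.05. Adh1, an alcohol and retinol dehydrogenase, read 9.91 and 9.72 against 6.99 and 6.40 (-3.12 ± 0.24 SE, limma adjusted p = 0.122).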
